A study of Mus musculus with 8 samples.

Results

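A set of 9 genes of cellular energy supply in muscle was followed in muscle stem cells (MuSCs) of aged mice cultured with nicotinamide and pyridoxine (NAM/PN) or with vehicle. They were the creatine kinases Ckm, Ckb and Ckmt2, the oxygen-binding protein gene Mb, the adenylate kinase gene Ak1, the AMP deaminases Ampd1, Ampd2 and Ampd3, and the adenylosuccinate synthase gene Adssl1. They were chosen by name, and each of the 9 matched 1 row among 55487 genes in the count table. Ckb, Ampd2 and Ampd3 are used by many cell types besides muscle.

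The MuSCs were sorted by FACS as lineage-negative, CD34+ and Itga7+ cells from hindlimb muscles of male C57BL/6JRj mice labelled old, and the supplement gives 23 to 24 months for aged mice in its MuSC culture assay. After sorting they were kept in growth medium for 72 hours, with the NAM/PN combination at 1 mM or with 1% DMSO as vehicle, and the labels do not say whether DMSO was also added with NAM/PN. The MuSC culture assay in the supplement differs from these labels, with a longer culture and less DMSO. The 8 mice were combined into 4 pools of 2 mice, and each pool was cultured in both conditions, which gave 4 libraries per condition. RNA was read from the 3′ end of transcripts (QuantSeq), so that 1 read stood for 1 amplified fragment without a molecular identifier. Libraries held between 6472484 and 10163101 reads counted on genes. Of 19244 genes with at least 1 read, 12060 passed the filter on low counts and were tested, among them 7 of the 9 genes. Levels are given as reads per 1000000 of the normalized library size (CPM), and a gene was called changed at an adjusted p under 0.05 in edgeR's quasi-likelihood test. Because the cultures were sequenced in bulk, fewer cells of a type and less RNA per cell cannot be told apart.

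Muscle keeps ATP in supply during work through coupled reactions. Creatine kinases pass phosphate between ATP and creatine, with Ckm in the cytosol of muscle fibres, Ckb in the cytosol of brain and many other cells, and Ckmt2 in the mitochondria of striated muscle. Adenylate kinase joins ADP molecules into ATP and AMP, and AMP deaminase then turns AMP into IMP, which adenylosuccinate synthase and adenylosuccinate lyase turn back into AMP in the purine nucleotide cycle. Myoglobin, encoded by Mb, binds oxygen in striated muscle. Ckm and Mb are switched on as myoblasts leave the cell cycle and differentiate, in part through E-boxes, the CANNTG sites bound by MyoD, myogenin and their partners.

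The promoter windows of the creatine kinases Ckm and Ckb, of Mb and of Ak1 are shown because these genes cover the different outcomes described below, from a called decrease to no call. Each line gives the 250 bases before a RefSeq start site on GRCm38.p6, 5′ to 3′ on the strand of the gene, with E-boxes in capitals.
Ak1, chr2:32621508-32621757, plus strand: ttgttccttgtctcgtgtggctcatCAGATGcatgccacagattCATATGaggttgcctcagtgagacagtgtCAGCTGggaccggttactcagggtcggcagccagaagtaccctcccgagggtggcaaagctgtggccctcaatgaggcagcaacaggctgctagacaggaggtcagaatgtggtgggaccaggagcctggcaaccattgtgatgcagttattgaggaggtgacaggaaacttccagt
Mb, chr15:77022788-77023037, minus strand: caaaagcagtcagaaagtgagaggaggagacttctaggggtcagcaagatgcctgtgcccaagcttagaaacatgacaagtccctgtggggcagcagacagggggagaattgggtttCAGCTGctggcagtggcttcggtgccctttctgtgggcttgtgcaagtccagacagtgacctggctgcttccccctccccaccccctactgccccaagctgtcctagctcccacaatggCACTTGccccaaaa
Ckm, chr7:19410844-19411093, plus strand: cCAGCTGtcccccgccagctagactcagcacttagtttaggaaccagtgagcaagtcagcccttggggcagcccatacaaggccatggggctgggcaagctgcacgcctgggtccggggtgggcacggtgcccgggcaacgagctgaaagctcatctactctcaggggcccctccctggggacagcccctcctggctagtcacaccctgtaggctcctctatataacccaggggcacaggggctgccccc
Ckb, chr12:111672339-111672588, minus strand: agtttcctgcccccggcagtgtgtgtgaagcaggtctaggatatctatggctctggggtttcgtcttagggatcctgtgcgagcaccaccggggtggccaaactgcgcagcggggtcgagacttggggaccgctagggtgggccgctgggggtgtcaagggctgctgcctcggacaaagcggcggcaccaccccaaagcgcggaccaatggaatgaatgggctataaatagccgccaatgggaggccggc
The Ak1 window lies directly upstream of the annotated gene and holds 3 E-boxes, and the table has 3 further Ak1 windows at other starts, with 1, 2 and 1. The windows of Mb and Ckm lie inside the annotated span of their genes, before an inner start site, and hold 2 E-boxes and 1 E-box, and 2 further Mb windows hold 2 and 3. The Ckb window holds no CANNTG, but 1 MEF2 box, the AT-rich site of the MEF2 factors, and 1 TATAAA that lies within the MEF2 box. Among 32851 windows of the same length in the mouse table, counted on both strands, 66.2% held at least 1 E-box and 12.2% held at least 3. The form CAGCTG, which overlaps the general E-box and was found in the windows of Ak1, Mb and Ckm, was in 13% of all windows, TATAAA in 12.4% and the MEF2 box in 0.508%. Windows of 8 of the 9 genes were found, Ampd1 having none in the table, and Ckmt2 held 4 E-boxes. These are matches of letters and were not tested for binding.

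NAM/PN lowered Ak1 in aged MuSCs, and Ak1 was the only one of the 7 tested genes to pass the threshold. Mb was also lower in every NAM/PN library than in every vehicle library, as were 4.42% of all tested genes, but its adjusted p did not pass. Ckm was scarce and absent from 3 libraries, Ckb, Ampd2 and Ampd3 did not pass, with Ampd2 at higher levels in all 4 pools, and Adssl1 did not pass either. No read of Ckmt2 or Ampd1 was found. Over all tested genes 1.28% were called, with 0.995% lower and 0.282% higher, and the median log2 fold change was -0.0022, with 50.2% of genes below 0. Of the 7 tested genes, 6 had a negative log2 fold change and their median was -1.19. Since 2 of the 9 genes had no reads, these counts describe the tested genes and not the whole set.

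**Figure D1:**
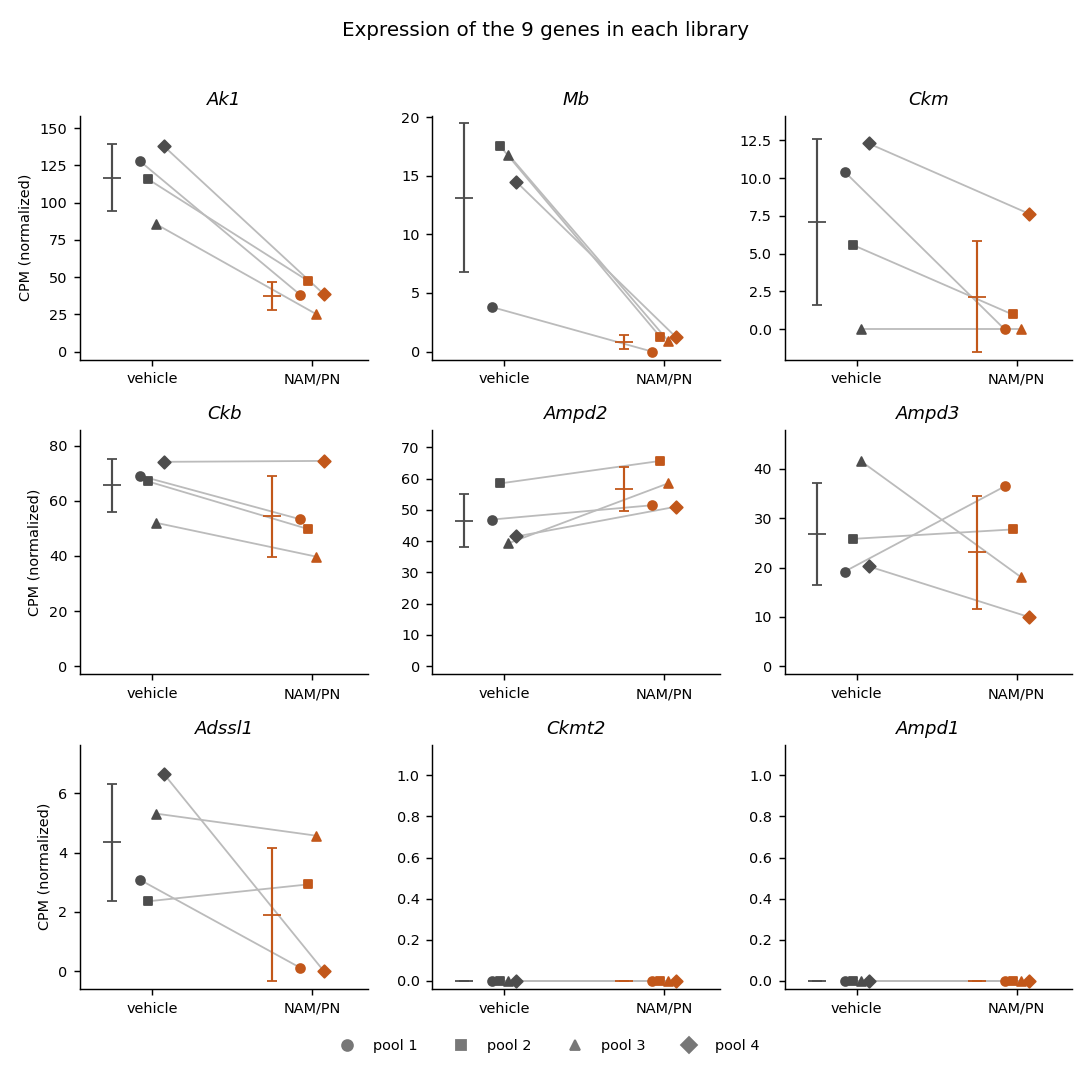
Level of each of the 9 genes in CPM (linear axis) in the 4 vehicle and 4 NAM/PN libraries, with grey lines joining libraries of the same pool and bars giving the mean ± SD of each condition. Ak1 and Mb separate the conditions without overlap, while Ckmt2 and Ampd1 lie at 0 in all 8 libraries. Of all tested genes, 4.42% were lower with NAM/PN without overlap.

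Among the creatine kinases, Ckm (ENSMUSG00000030399, chr7:19404776-19422841 on GRCm38, plus strand) is the muscle isoform. With vehicle its level was 10.4, 5.58, 0 and 12.3 CPM in pools 1 to 4, and with NAM/PN it was 0, 0.975, 0 and 7.66 CPM. Ckm was thus lower with NAM/PN in 3 pools, pool 3 had no read in either condition, and the ranges of the conditions overlapped. The vehicle libraries held 246 Ckm reads in all and the NAM/PN libraries 89, of which 82 came from pool 4. The mean was 7.08 ± 5.50 CPM in vehicle cultures and 2.16 ± 3.70 CPM in NAM/PN cultures (SD, n = 4). The log2 fold change was -1.69 with an SE of 1.56 and a 95% interval from -4.96 to 1.58, and the adjusted p in edgeR was 0.870. The interval includes both a large decrease and an increase. The value was -4.38 without the NAM/PN library of pool 4, -2.90 with the pool as a replicate block and -1.04 without both libraries of pool 1, and it passed in none of 17 alternatives (adjusted p between 0.409 and 0.991). Floors and intervals from counts cover counting error only.

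Ckb (ENSMUSG00000001270, chr12:111669361-111672338, minus strand) encodes the brain-type cytosolic isoform and was present in every library. Its level was 69.0, 67.0, 52.0 and 74.1 CPM in vehicle cultures and 53.3, 49.7, 39.7 and 74.4 CPM in NAM/PN cultures. In pools 1 to 3 the NAM/PN library had between 74.2% and 77.2% of the vehicle level, and in pool 4 it had 100.4%. The log2 fold change was -0.27 (SE 0.24, 95% interval from -0.77 to 0.23, adjusted p = 0.866 in edgeR), which is within the spread between libraries. It lay between -0.46 without the NAM/PN library of pool 4 and -0.15 without that of pool 3, and passed in no alternative. Ckmt2 (ENSMUSG00000021622, chr13:91853387-91876885, minus strand), the sarcomeric mitochondrial isoform, had 0 reads among 66581729 in the 8 libraries. A count of 0 allows up to 3 reads in a library, or between 0.280 and 0.457 CPM.

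The balance of the isoforms was expressed as the share of Ckm among the reads of Ckm, Ckb, Ckmt1 and Ckmt2, which does not depend on the library size. Reads from the 3′ end were not divided by transcript length, and a share therefore counts reads. With vehicle Ckm took 13.1%, 7.69%, 0% and 14.2% of these reads, and with NAM/PN 0%, 1.92%, 0% and 9.33%. The mean share was 8.76% ± 6.50 with vehicle and 2.81% ± 4.44 with NAM/PN (SD, n = 4). The difference of -5.95 percentage points did not exceed the spread between libraries (two-sided exact permutation test, p = 0.257, where 0.0286 is the smallest p that 4 against 4 libraries allow). Within pools, the exact test over the signs of the differences gave p = 0.25. The difference was -8.87 without the vehicle library of pool 3 and -4.12 without that of pool 4. The 95% exact binomial interval was 0% to 0.872% for 0 of 421 reads in the vehicle library of pool 3 and 11.9% to 16.9% for 113 of 794 reads in that of pool 4. All other reads of the family came from Ckb, since Ckmt1 also had no reads.

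Mb (ENSMUSG00000018893, chr15:77015487-77050670, minus strand) was found in all vehicle libraries at 3.79, 17.5, 16.8 and 14.5 CPM. With NAM/PN it was listed at 0, 1.25, 0.914 and 1.21 CPM, so that the highest NAM/PN library lay below the lowest vehicle library. The vehicle libraries held 442 Mb reads and the NAM/PN libraries 28. In pools 2 to 4 the NAM/PN level was between 5.44% and 8.39% of the vehicle level of the same pool, and in pool 1 no read was left of 32. The log2 fold change was -3.93 (SE 1.02, 95% interval from -6.06 to -1.80), and the adjusted p in edgeR was 0.0687. The exact permutation test of the CPM values alone gave p = 0.0286, the smallest that it can give. Of all tested genes, 4.42% were lower with NAM/PN without overlap between the conditions. Mb passed with DESeq2 (log2 fold change -3.96, adjusted p = 0.000387) and when the filter on low counts was left out in edgeR (adjusted p = 0.0141), and its adjusted p lay between 0.000387 and 0.413 over 18 alternatives.

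Ak1 (ENSMUSG00000026817, chr2:32621758-32635058, plus strand) encodes the cytosolic adenylate kinase of muscle and other tissues. Its level was 128, 116, 85.6 and 138 CPM in the vehicle libraries of pools 1 to 4. In the NAM/PN libraries it was 38.3, 47.5, 25.3 and 38.5 CPM. The lowest vehicle library thus lay well above the highest NAM/PN library. A decrease without overlap was seen in 4.42% of all tested genes. For Ak1, pool 3 was the lowest in each condition. Within pools the NAM/PN level was between 27.9% and 41.0% of the vehicle level. The mean fell from 117 ± 22.6 CPM to 37.4 ± 9.15 CPM (SD, n = 4), on 693 to 1266 reads per vehicle library and 166 to 412 reads per NAM/PN library. The log2 fold change was -1.64 with an SE of 0.24, a 95% interval from -2.14 to -1.14 and an adjusted p of 0.000715 in edgeR.

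Of the other adenylate kinases, Ak3 and Ak4 belong to the mitochondrial matrix and Ak6 to the nucleus, with Ak6 named after its values were seen. Ak6 was at 160 ± 16.4 CPM with vehicle and at 156 ± 29.3 CPM with NAM/PN (SD, n = 4), a log2 fold change of -0.03 (SE 0.19). Ak3 had a log2 fold change of -0.20 (SE 0.27) and Ak4 of -0.74 (SE 0.53, adjusted p = 0.790 in edgeR), both short of the threshold. The differences between these fold changes were not tested. Ak5, Ak8 and Ak9 had no reads.

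AMP deaminases remove the AMP that adenylate kinase makes. Ampd1 (ENSMUSG00000070385, chr3:103074014-103099720, plus strand), the muscle isoform, had 0 reads in all 8 libraries and 0 of 4999 AMP deaminase reads, which allows a share of up to 0.060%. With no read in either condition, the test of its share has p = 1 by construction (exact permutation test). Ampd2 (ENSMUSG00000027889, chr3:108074062-108086651, minus strand), the isoform of liver and many other tissues, was at 46.9, 58.4, 39.3 and 41.5 CPM in vehicle cultures and 51.5, 65.6, 58.5 and 51.0 CPM in NAM/PN cultures. It was higher with NAM/PN in all 4 pools, at 110% to 149% of the vehicle level, but the ranges overlapped. The log2 fold change was 0.28 (SE 0.24, 95% interval from -0.21 to 0.78, adjusted p = 0.842 in edgeR).

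Ampd3 (ENSMUSG00000005686, chr7:110768206-110812405, plus strand), the isoform of red blood cells that other tissues also express, was at 19.2, 25.8, 41.6 and 20.2 CPM with vehicle. With NAM/PN it was at 36.4, 27.7, 18.1 and 9.99 CPM. Pools 1 and 2 were higher and pools 3 and 4 lower with NAM/PN, and the log2 fold change was -0.21 (SE 0.41, 95% interval from -1.07 to 0.64, adjusted p = 0.964 in edgeR). Its sign turned to 0.08 without the vehicle library of pool 3, to 0.04 without the NAM/PN library of pool 4 and to 0.18 without both libraries of pool 3. Ampd3 overlaps Rnf141 on the opposite strand, which held 440 to 1685 reads per library, and the strand setting of the counting is not given in the sources used here. Of the AMP deaminase reads, Ampd3 took between 29.0% and 51.5% in vehicle cultures and between 16.4% and 41.5% in NAM/PN cultures, and Ampd2 took the rest.

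Adssl1 (ENSMUSG00000011148, chr12:112620045-112641360, plus strand) encodes the muscle form of adenylosuccinate synthase. It was at 3.08, 2.36, 5.31 and 6.64 CPM in vehicle cultures and at 0.123, 2.93, 4.57 and 0 CPM in NAM/PN cultures, on 149 and 52 reads in all. Pools 1 and 4 had almost no read left with NAM/PN, pool 3 was at 86.0% of its vehicle level and pool 2 was higher. The log2 fold change was -1.19 (SE 1.48, 95% interval from -4.30 to 1.91, adjusted p = 0.926 in edgeR). It was -2.51 with the pool as a replicate block, -2.10 without the NAM/PN library of pool 3, -0.78 without that of pool 4 and -0.50 without both libraries of pool 4, and passed in no alternative. As a share of the reads of Adssl1 and of Adss, the non-muscle synthase, Adssl1 took 2.5%, 2.93%, 4.83% and 7.42% with vehicle and 0.097%, 2.75%, 3.68% and 0% with NAM/PN. This share was lower with NAM/PN in all 4 pools, with means of 4.42% ± 2.24 and 1.63% ± 1.87 (SD, n = 4). The difference of -2.79 percentage points did not pass the two-sided exact permutation test (p = 0.143). Among NAM/PN libraries, 0 of 1492 reads in pool 4 and 30 of 815 in pool 3 gave 95% exact binomial intervals of 0% to 0.247% and 2.5% to 5.21%.

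**Figure D2:**
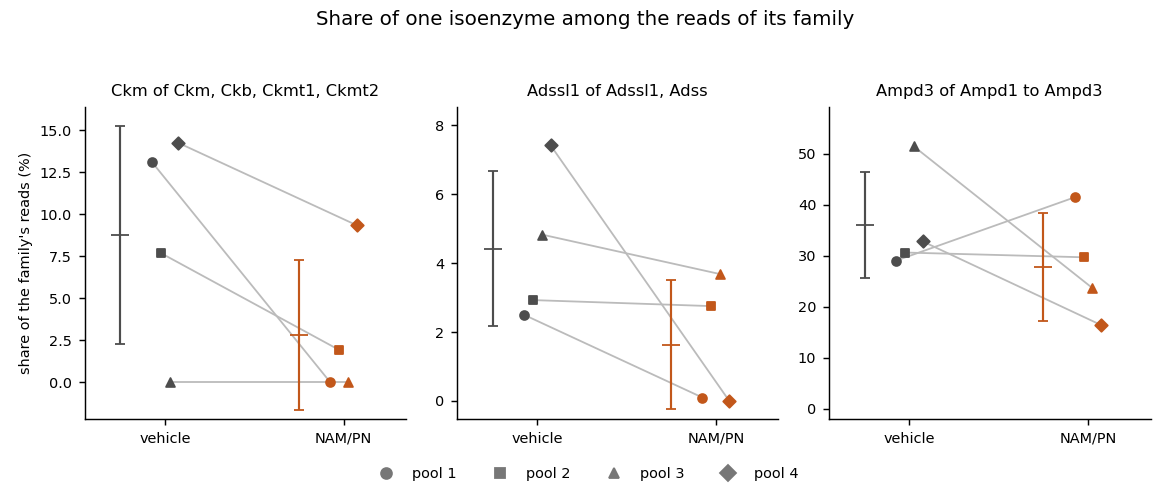
Share in % of the reads of a gene family taken by Ckm, Adssl1 and Ampd3 in each library, with lines joining the pools and bars giving mean ± SD over 4 libraries. The ranges of the conditions overlap for each of these shares, and the Ckm share was 0% in 3 libraries.

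**Figure D3:**
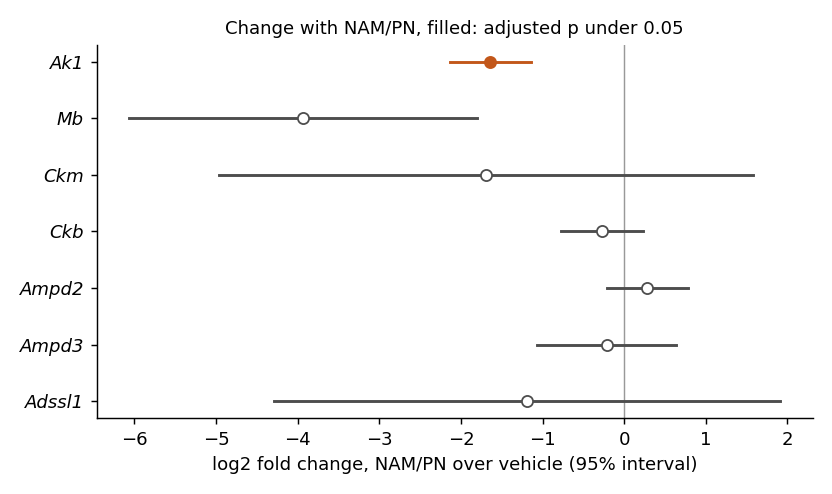
Log2 fold change of NAM/PN over vehicle with its 95% interval for the 7 tested genes, filled where the adjusted p in edgeR was under 0.05. The interval of Ak1 runs from -2.14 to -1.14, that of Mb from -6.06 to -1.80, and those of the other 5 genes include 0.

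The other genes of these pathways were counted in 10 lists that, without the 9 genes, hold 80 genes, of which 59 were tested. Of these, 4 were called lower and 0 higher, against the 0.995% and 0.282% over all tested genes, while 10 were lower and 3 higher at an unadjusted p under 0.05 in edgeR, against 5.32% and 3.96% of all tested genes. DESeq2 called the same 4 genes and none higher, and without the filter on low counts edgeR called 6, with Atp2a1 and Mef2a in addition. Their median log2 fold change was -0.08, and 39 of the 59 were below 0. All 4 called genes were structural or regulatory muscle genes rather than enzymes of adenylate metabolism. They were Myog and Mef2c among activators of Ckm transcription and Myh1 and Myh3 among ATP-consuming motor proteins.

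Within the creatine system, Gatm, which makes the creatine precursor, had 34.3 ± 11.7 CPM in vehicle cultures and 17.4 ± 8.94 CPM in NAM/PN cultures. It was lower in all 4 pools, but the ranges overlapped and the adjusted p was 0.434 in edgeR (log2 fold change -0.98, SE 0.41). None of the 5 tested of 7 creatine genes passed, with a median of -0.35, and Gatm was the only one at an unadjusted p under 0.05. Of 10 adenylate kinase genes, with the related UMP-CMP kinase gene Cmpk1 counted among them, 6 were tested, and the median was -0.12 with Ak1 as the only call. In the purine nucleotide cycle 0 of 5 tested genes passed and the median was 0.28. Adsl, adenylosuccinate lyase, was at 36.7 ± 9.61 CPM in vehicle cultures and 55.0 ± 9.09 CPM in NAM/PN cultures (log2 fold change 0.58, SE 0.26, adjusted p = 0.495 in edgeR), and Adss at 96.4 ± 19.5 and 122 ± 15 CPM (0.34, SE 0.20, adjusted p = 0.692). Both were higher in all 4 pools, with overlapping ranges.

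A broader list of AMP and adenosine turnover, which also held other nucleotidase, salvage and nucleoside transporter genes, gave no call among 9 tested. Its median was 0.18. The nucleoside transporter gene Slc29a1 had a log2 fold change of -0.64 (adjusted p = 0.434 in edgeR), the nucleotidase gene Nt5c3 of 0.59 (adjusted p = 0.484) and Slc29a2 of 0.49 (adjusted p = 0.782). The list of AMP-activated protein kinase, which senses AMP, held its 7 subunit genes and its upstream regulators Stk11, Cab39 and Camkk2, and all 10 were tested and none was called, with a median of -0.04. Its γ subunit gene Prkag1 was higher in each NAM/PN library than in each vehicle library (log2 fold change 0.46, SE 0.18), but its adjusted p was 0.359, and 2.79% of all tested genes were higher without overlap. Prkab2 had a log2 fold change of -1.0 (adjusted p = 0.593) and Prkag3, the γ subunit of skeletal muscle, of -1.89 (SE 1.06, adjusted p = 0.665). Prkag3 was at 11.8, 17.6, 5.80 and 12.2 CPM with vehicle and at 0, 2.93, 0.305 and 9.43 CPM with NAM/PN. It was lower in all 4 pools with overlapping ranges, and its log2 fold change was -3.31 with the pool as a replicate block (adjusted p = 0.380 in edgeR).

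Carriers of adenine nucleotides and phosphate gave no call among 6 tested, with a median of 0.02. Slc25a5 (0.20), Slc25a4 (0.06) and Vdac1 (-0.06) had the smallest p-values of that list. Of the globins, Mb and Cygb were tested, and Cygb had a log2 fold change of -0.08 (SE 0.87), while the 4 haemoglobin genes had no reads. Among 6 tested regulators of oxidative metabolism the median was 0.10 and none passed, with Esrra at -0.79 (adjusted p = 0.521), Ppargc1a at -0.74 (adjusted p = 0.80) and Tfam at 0.28 (adjusted p = 0.849). All p-values of these lists come from the edgeR fit over all genes. Among the lists without a call, Mb, Gatm, Adsl, Slc29a1, Nt5c3, Prkag1 and Esrra had an unadjusted p under 0.05, and DESeq2 made no call in them apart from Mb.

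**Figure D4:**
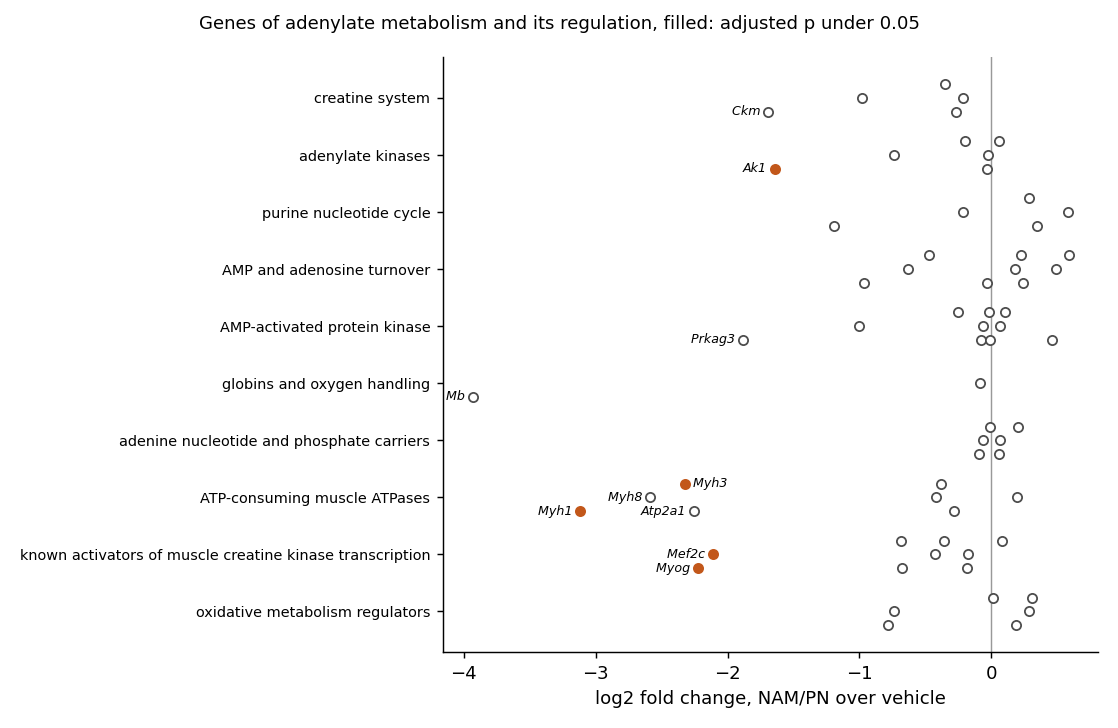
Log2 fold change of NAM/PN over vehicle for the tested genes of the 10 lists, 1 point per gene, filled where the adjusted p in edgeR was under 0.05 and named where called or among the lowest values. The filled points are Ak1, Myh1, Myh3, Myog and Mef2c, and no other gene of the creatine and adenylate lists is filled.

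The activators of Ckm transcription and the ATPases of the contractile apparatus held the other calls. Myog, myogenin, was at 680, 1042, 566 and 1428 CPM in vehicle cultures and at 108, 237, 173 and 277 CPM in NAM/PN cultures. It was lower in every NAM/PN library (log2 fold change -2.22, SE 0.29, adjusted p = 0.000232 in edgeR). Mef2c, a partner of the myogenic factors, had a log2 fold change of -2.11 (SE 0.43, adjusted p = 0.0125), and Mef2a of -0.69 (SE 0.22, adjusted p = 0.194). Myod1 was at 1366 ± 175 CPM in vehicle cultures and 1201 ± 134 CPM in NAM/PN cultures, which did not pass (log2 fold change -0.19, SE 0.15). Thus 2 of 9 tested activators were called lower, 8 of the 9 had a negative log2 fold change, and the median of the list was -0.42. Of 8 tested ATPases, the embryonic myosin gene Myh3 (log2 fold change -2.33, adjusted p = 0.000232) and the fast myosin gene Myh1 (-3.12, adjusted p = 0.0257) were called lower. Of the 8, 7 had a negative log2 fold change, and the median was -1.34. Over 12 fits that left out a library or a pool, Myog and Myh3 stayed called in all, Mef2c in 6 and Myh1 in 3. The calcium pump gene Atp2a1 did not overlap between conditions and was at 25 ± 15.9 CPM in vehicle cultures and 5.20 ± 3.72 CPM in NAM/PN cultures (log2 fold change -2.26, SE 0.70, adjusted p = 0.159). Of all tested genes, 4.42% were lower with NAM/PN without overlap. Myosin heavy chain genes are close copies, and how reads matching several genes were counted is not given in the sources used here.

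Markers of cell types moved beside Ak1 and Mb as follows. Of 10 differentiating myocyte markers, all tested, 7 were called lower with NAM/PN (Myh3, Myog, Mymk, Acta1, Mymx, Tnnt3 and Tnni1). All 10 had a negative log2 fold change, with a median of -2.39. With the pool as a replicate block 9 of the 10 were called, Actc1 (adjusted p = 0.00931 in edgeR, against 0.281 without the block) and Ttn (0.00079, against 0.0736) in addition. Their summed level ranged from 1750 to 3583 CPM with vehicle and from 451 to 1177 CPM with NAM/PN. Of 8 adult myofibre markers 4 were tested and 3 were called lower (Mylpf, Tnnc2 and Myh1), while all 4 had a negative log2 fold change. The sum over the 8 ranged from 312 to 419 CPM with vehicle and from 30.4 to 101 CPM with NAM/PN. Of 8 satellite cell and myoblast markers 7 were tested and none was called, with a median of -0.19. All 7 had a negative log2 fold change, and Des had an unadjusted p of 0.032 in edgeR. The sums were 2732 to 3226 CPM with vehicle and 2187 to 2745 CPM with NAM/PN. Pax7 was found in all libraries, at 166 to 247 CPM with vehicle and 97.3 to 200 CPM with NAM/PN. The part of these cell types in the levels of Ak1 and Mb was not tested.

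Among markers of other cells, 8 fibro-adipogenic genes had summed levels of 153 to 207 CPM with vehicle and 57.0 to 1123 CPM with NAM/PN, with Pdgfra, Lum, Mfap5 and Dpt at 0. Col3a1 was lower (log2 fold change -1.17, adjusted p = 0.00255 in edgeR), and Col1a1 reached 486 and 1032 CPM in the NAM/PN libraries of pools 1 and 2 only, against 41.3 CPM at most in the other libraries (adjusted p = 0.0709). Ak1 was at 38.3 and 47.5 CPM in those libraries and at 25.3 and 38.5 CPM in the other NAM/PN libraries. Endothelial markers summed to 0 to 4.68 and 0 to 7.25 CPM, with Emcn, Flt1 and Cldn5 at 0. Mural markers summed to 18.9 to 64.9 and 20.7 to 32.7 CPM, with Myh11 at 0. Most of this sum was Notch3, at 18.9 to 53.5 CPM with vehicle and 20.7 to 30.8 CPM with NAM/PN. Rgs5, Kcnj8 and Pdgfrb had no read with NAM/PN. Glial markers summed to 1.61 to 12.4 and 2.83 to 12.6 CPM, with S100b at 0. Immune markers summed to 0.979 to 7.58 and 3.50 to 7.14 CPM, with 5 of 6 at 0, and all 5 erythroid markers were at 0. Across all genes, the vehicle library of pool 3 and the NAM/PN library of pool 4 stood apart from the others of their condition (chi-square per degree of freedom of 64.4 to 82.2 and 67.4 to 78.6, against 22.8 to 28.3 between the others). The NAM/PN library of pool 4, with 82 of the 89 NAM/PN reads of Ckm, had 5.22% of its reads on the ribosomal RNA gene CT010467.1, against 10.2% to 11.6% in the other NAM/PN libraries. Without it, the log2 fold change of Ak1 was -1.66. The vehicle library of pool 3, with the lowest Ak1 and no Ckm read, gave 18.7% of its reads to the same gene, against 9.09% to 9.59% in the other vehicle libraries. Without it, the log2 fold change of Ak1 was -1.77 and that of Ckm -2.11.

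The genes whose pattern over the 8 libraries was most like that of a given gene were found from the root mean square (RMS) difference of log2 CPM values centred on each gene, among 9208 genes. For Ckm they were Snu13 (RMS difference 1.39), Bcas3 (1.54), Frmpd1 (1.57), Nrxn2 (1.58) and Cyba (1.6), where the median over all candidates was 2.46. Ckm itself had no reads in 3 of the 8 libraries. For Ak1, added after its values were seen, they were Synpo2l (0.25), Cdkn1a (0.27), Mest (0.30), Cd200 (0.30) and Igfbp5 (0.32), with a median of 0.98 over all candidates. For Mb, added likewise, they were Acta1 (0.60), Myom3 (0.71), Gsn (0.73), Myh1 (0.81) and Ccdc141 (0.81), with a median of 2.16. The values of Ak1, Mb and these genes rest on the same 8 libraries.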

How the data were processed

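RNA of aged MuSCs was sequenced in 8 libraries, and the authors deposited unnormalized, unfiltered counts for each gene. According to the supplement and the submitters' processing notes, the authors used casava 1.8.2, aligned reads to GRCm38 with RNASTAR 2.5.3a and counted them with HTSeq 2.16.2. The annotation release and strand setting are not given in the sources used here.

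Counts were analysed in R 4.3.3 with edgeR 4.0.16 (filterByExpr with a minimum count of 10 and a minimum total of 15, TMM normalization, glmQLFit and glmQLFTest), as the study describes for mouse muscle libraries. The p-values were adjusted by Benjamini-Hochberg over 12060 genes, with a threshold of 0.05. The supplement does not state an adjustment or threshold for single genes of those muscle libraries. The SE is the absolute log2 fold change divided by the square root of the F statistic. Log2 CPM used a prior count of 2. Floors were 3 counts. The test was run on simulated data of 12060 genes for this comparison, where 64 of 100 genes changed by 2 on the log2 scale and 26 of 100 changed by 1 were recovered, with 6 unchanged genes called.

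Libraries were grouped by the treatment in the labels. Both libraries of a pool came from the same mice according to the labels, which pairs them, although deviations of paired libraries correlated at only -0.033 to 0.031 over 12060 genes. Libraries of a condition differed beyond counting noise (chi-square per degree of freedom at least 22.8), and none was counted as a repeat. Gene positions came from GENCODE M21, which held 55227 of the identifiers, and promoter windows from RefSeq on GRCm38.p6. Shares were tested by exact permutation, two-sided, over 70 assignments, and within pools over the signs of the differences. Figures were drawn with matplotlib 3.10.9.

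The 9 genes, the pathway and marker lists and the tests were chosen with earlier results of these data known. All 9 genes, the called genes and the 3 with the smallest p of each list were named, as were the 5 genes nearest to Ckm in pattern whose average log2 CPM reached 3. Genes nearest to Ak1 and Mb, the share of Ampd3, Ak6, Myod1, Myh8 (labelled in the plot of pathway genes only), Rnf141 and CT010467.1 were added after values were seen. Alternatives were the replicate block, DESeq2 1.42.0, its size factors in edgeR, no filter, thinned counts, leaving out each library, and, added after seeing the data, leaving out each pool and a threshold of 0.10. Some genes of the lists are not reported here by name.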

Additional observations from a re-analysis of the deposited data

Results flagged for a closer look

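Among 30 groups of 4 libraries examined, 3 had a library apart from the others by Dixon's criterion, where chance would give 1.5. In the NAM/PN group the Ckm level of pool 4 was 7.66 CPM, against 0 to 0.975 CPM in the other libraries. In the vehicle group Ampd3 took 51.5% of the AMP deaminase reads in pool 3, against 29.0% to 32.8% in the other libraries. The same vehicle library of pool 3 gave 18.7% of its reads to the ribosomal RNA gene CT010467.1, against 9.09% to 9.59% in the others. The Ampd3 fold change changed its sign when this library was left out, and its link to the ribosomal share was not tested.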

How the results depend on the processing

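The call of Ak1 held under all 18 alternatives (log2 fold change between -1.78 and -1.5, adjusted p between 1.54e-09 and 0.0235 in edgeR or DESeq2). Among these, the threshold of 0.10 reused the main fit and could not have removed the call. Mb was called in addition with DESeq2, without the filter and at a threshold of 0.10, which gave 2 called genes of the set each. Mb stayed between -4.27 and -3.52. Over all genes, the 154 calls became 289 with DESeq2, 366 without the filter and 244 at a threshold of 0.10, and 42 to 177 on leaving out single libraries or pools, with 80 without vehicle replicate 2, 87 without vehicle replicate 4, 92 without NAM/PN replicate 1 and 42 without both libraries of replicate 2. The pathway genes called, 4 of 59, were 6 without the filter (Atp2a1 and Mef2a gained) and 2 to 4 when libraries were left out, with 2 (Myh3 and Myog) without the vehicle library or without both libraries of pool 2, and Slc29a1 was gained without vehicle replicate 3 alone or both libraries of pool 3. Ampd3 reversed to 0.08 without vehicle replicate 3, to 0.04 without NAM/PN replicate 4 and to 0.18 without both libraries of replicate 3, with leave-out values between -0.66 and 0.18. The cause of these changes was not tested. With the pool as a replicate block, 156 genes were called, 130 of them shared, the set kept 1 call, Ak1 at -1.66, and no other call of the set or the pathway genes changed, while the myocyte markers Actc1 and Ttn were gained. Ckm could not be fitted without both libraries of replicate 4, since it then failed the filter. A pair of conditions with 4 libraries each cannot give an exact p under 0.0286, and a gene without reads is limited by depth to the floor given for it.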
